A study of Mus musculus with 4 samples.

Results

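Tuft cells are rare chemosensory cells of the intestinal epithelium, and 9 of their genes were followed in mouse colonic mucosa between juvenile and young adult age. The genes were taken by name: Pou2f3, Gfi1b, Plcb2, Trpm5, Alox5, Ltc4s, Ptgs1, Avil and Dclk1. They were matched to 18 probes among the 41174 gene probes of the array, and all 9 genes (17 probes) passed the filter on dim probes, out of 20825 genes and transcripts (27055 probes) that passed in all. The study compared C57BL/6 mice at postnatal day 90 (P90) with C57BL/6 mice at postnatal day 30 (P30) on 4 two-colour arrays, here called a, b, e and k. Mucosa was sheared off the colon with a microscope slide and frozen, and each array received total RNA of 1 P90 and 1 P30 mucosa in opposite dyes, with the dyes exchanged on array e. Where 4 values follow each other they are those of arrays a, b, e and k in this order. No treatment, genotype or sex is given in the labels. The labels speak of independent comparisons without saying whether each animal was used once. A p-value here therefore reflects no more than how far the 4 pairs vary, with each gene's variance drawn by limma toward that of all genes. Some of that variation may be technical. P90 was in Cy3 on 3 of the 4 arrays, so the means are not balanced for dye.

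Tuft cells arise under the transcription factor Pou2f3. They sense luminal signals through a cascade shared with taste cells, in which phospholipase C releases calcium from stores and calcium opens the cation channel Trpm5. On activation they release lipid mediators, the leukotrienes and prostaglandins, and the cytokine IL-25, which starts the type 2 immune response to parasites. In scraped mucosa, more tuft cells and more RNA per tuft cell cannot be told apart.

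The labelled tissue was checked on 12 colonic epithelial markers. All 11 that were named on the array, among them Car1, Lgals4, Krt8 and Guca2a, were well above background in both channels on every array. Between 55.6% and 71.0% of gene spots were well above background in a channel. The labels give array b the same dyes as a and k, but its ratios ran against theirs: over all gene probes Pearson r was -0.303 between a and b, 0.43 between a and k, and 0.58 between a and e. These correlations are across probes, which are not independent replicates. The labelled direction was kept for all 4 arrays, and values without array b are given for the named genes above background whose mean they move by over 1.5 times, and for Trpm5, Alox5 and Gfi1b.

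All 9 genes had a mean log2 P90/P30 above 0, where 45.6% of all genes did, with a median of 0.46 over the 9 against -0.020 over all genes. The calcium-gated channel gene Trpm5, the leukotriene enzyme gene Alox5, the transcription factor gene Gfi1b and the actin-binding protein gene Avil lay highest, at 0.71, 0.66, 0.54 and 0.54. Pou2f3, the lineage regulator, and Plcb2, the phospholipase of the taste cascade, lay at 0.0060 and 0.054. The signal of Pou2f3 was near background, and Ptgs1, with a mean of 0.10, was above 0 on array b alone. None of the 9 passed the limma test with Benjamini-Hochberg adjustment over all genes (smallest adjusted p among them = 0.617), and neither did any other gene (0% of 20825). At an unadjusted limma p below 0.05, 4 of the 9 were higher at P90 and none lower, against 2.59% and 5.31% of all genes. Trpm5, Alox5 and Avil (33.3% of the 9) were above 0 on all 4 arrays, where 6.15% of all genes were, and none of the 9 was below 0 on all 4, where 7.98% were. The 9 genes were put together with results of these data known, so these shares describe them and carry no test. By array, the median of the 9 was 0.62, 0.21, 0.080 and 0.58. With each array centred on its median in place of loess, it was 0.18 with all genes at -0.21, and 7 of the 9 means lay above 0. With a dye term 6 of the 9 means did, and with array b turned also 6. Without background correction and from the deposited log ratio 8 did. All 9 stayed above 0 with a normexp offset of 10 and with the kept probes of a gene averaged.

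**Figure D1:**
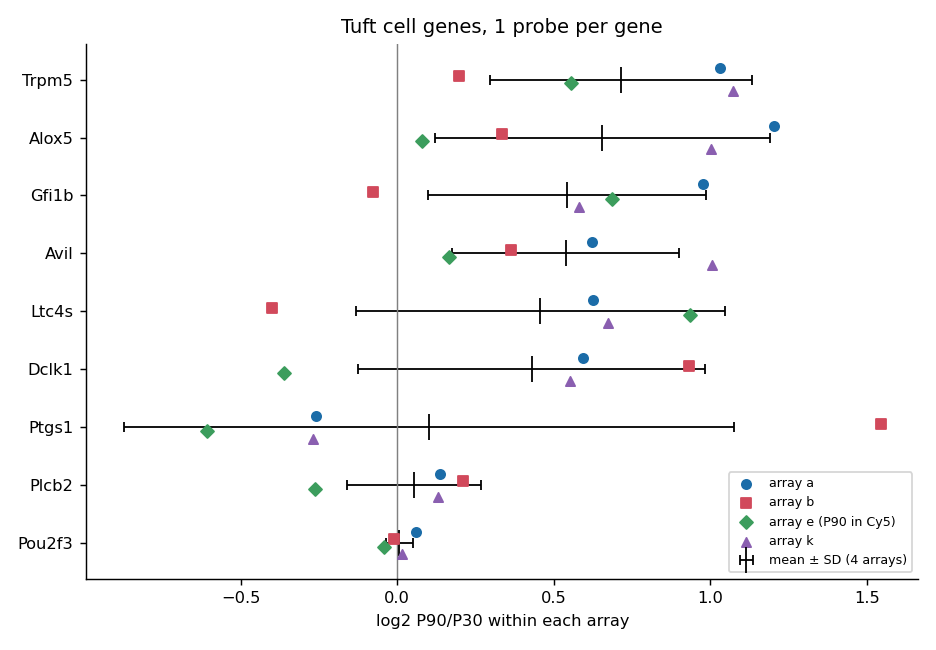
Log2 P90/P30 of the 9 tuft cell genes (x axis) on each of the 4 arrays (coloured marks), with the mean and SD over arrays in black; 1 probe stands for each gene. Trpm5, Alox5 and Avil lie above 0 on all 4 arrays, Ptgs1 reaches 1.54 on array b and is below 0 on the other arrays, and Pou2f3 stays between -0.042 and 0.061.

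The promoters of the 3 genes above 0 on every array are shown because no other member read the same way on all 4 arrays. Each line is the 250 bases before the annotated start of the gene, from RefSeq on build GRCm38.p6, read 5′ to 3′ on the gene's own strand. Trpm5 is on the minus strand at chr7:143094643-143094892, Alox5 on the minus strand at chr6:116461179-116461428 and Avil on the plus strand at chr10:127000459-127000708. Capitals mark ATGCAAA on either strand, the octamer ATGCAAAT bound by POU factors short of its last base.
Trpm5: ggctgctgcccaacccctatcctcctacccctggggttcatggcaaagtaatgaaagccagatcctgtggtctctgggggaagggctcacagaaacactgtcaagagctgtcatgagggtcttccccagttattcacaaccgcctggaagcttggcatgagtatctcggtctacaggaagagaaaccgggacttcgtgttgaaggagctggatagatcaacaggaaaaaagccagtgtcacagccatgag
Alox5: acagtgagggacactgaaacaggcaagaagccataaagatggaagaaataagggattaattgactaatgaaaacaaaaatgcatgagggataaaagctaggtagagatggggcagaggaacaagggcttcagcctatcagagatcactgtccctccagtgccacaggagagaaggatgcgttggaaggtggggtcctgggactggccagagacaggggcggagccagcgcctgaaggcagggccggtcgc
Avil: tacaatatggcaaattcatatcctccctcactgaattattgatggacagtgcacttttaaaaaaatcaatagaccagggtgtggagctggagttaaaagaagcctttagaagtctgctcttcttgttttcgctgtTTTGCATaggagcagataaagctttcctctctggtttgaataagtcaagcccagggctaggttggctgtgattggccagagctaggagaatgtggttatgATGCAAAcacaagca

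The full octamer ATGCAAAT, searched on both strands in windows from 250 bases before to 50 after each start, was found in none of 9 promoters of 8 members, and 1.74% of 32851 promoters held it. The 7-letter form, which lies within the octamer, was searched after the sequences had been seen. It occurred in 4.63% of all promoters and in 1 of the 9, that of Avil. Counted along the gene's own strand, the first base of the minus-strand match lies 115 bases before the start. The first base of the plus-strand match lies 15 bases before it. A match of letters is no evidence of binding. No promoter of Pou2f3 was used here.

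Of the 2 transcription factor genes, Gfi1b read above 0 on 3 of 4 arrays and Pou2f3 was near background. Gfi1b encodes a zinc-finger repressor of blood and tuft cells. Its single probe gave a background-subtracted signal at P90 of 106, 173, 159.5 and 129, and at P30 of 130, 137, 106 and 130. After normalisation its log2 P90/P30 was 0.98, -0.076, 0.69 and 0.58, so that 3 arrays were alike and array b was slightly below 0. The mean was 0.54 ± 0.44 (SD, n = 4; limma adjusted p = 0.624). The mean without array b was 0.75.

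The probe of Pou2f3 was well above background in the P30 channel on all 4 arrays and in the P90 channel on 2. It therefore passed the filter through P30. Its background-subtracted signal was between 18 and 36 at P30 and between 19.5 and 34 at P90. Its log2 P90/P30 was 0.061, -0.0099, -0.042 and 0.014. At this signal a difference in Pou2f3 was not measurable, and the sign of its mean of 0.0060 ± 0.043 (SD, n = 4) changed with the background treatment.

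In the taste cascade, Trpm5 was the gene with the clearest separation of the ages. Its background-subtracted signal at P90 was 281, 503, 288 and 352, and at P30 it was 416.5, 349.5, 225.5 and 278, before the dyes were balanced. After normalisation its level (log2 signal, including the offset of 50) at P90 was 9.22, 8.58, 8.53 and 9.36, and at P30 it was 8.19, 8.38, 7.98 and 8.29. All 4 P90 levels lay above all 4 P30 levels, which held for 0.888% of all genes and for none of the other 8 members. The log2 P90/P30 was 1.03, 0.20, 0.55 and 1.07, with a mean of 0.71 ± 0.42 (SD, n = 4), or 1.64-fold (limma adjusted p = 0.617). Without array b the mean of Trpm5 was 0.89 (limma adjusted p = 0.0860). In that setting Ltc4s had the same limma adjusted p, and Gfi1b had 0.0891. There 20.5% of all genes were above 0 on every array left, and none passed the adjusted test. Over all alternatives the limma adjusted p of Trpm5 ran from 0.0860 to 0.9998. With median centring the mean was 0.35.

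Plcb2 lies upstream of Trpm5 in the same cascade and showed no such separation. Its brightest probe, A_52_P365466, gave a log2 P90/P30 of 0.14, 0.21, -0.26 and 0.13. The mean was 0.054 ± 0.21 (SD, n = 4; limma adjusted p = 0.954), and without array b it was 0.0016. A second probe, A_51_P260356, gave 0.020 ± 0.23 at signals of 22 to 34 above background, and the third, A_52_P583291, was not well above background in either channel on any array. The test of a difference between Trpm5 and Plcb2 was not made.

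**Figure D2:**
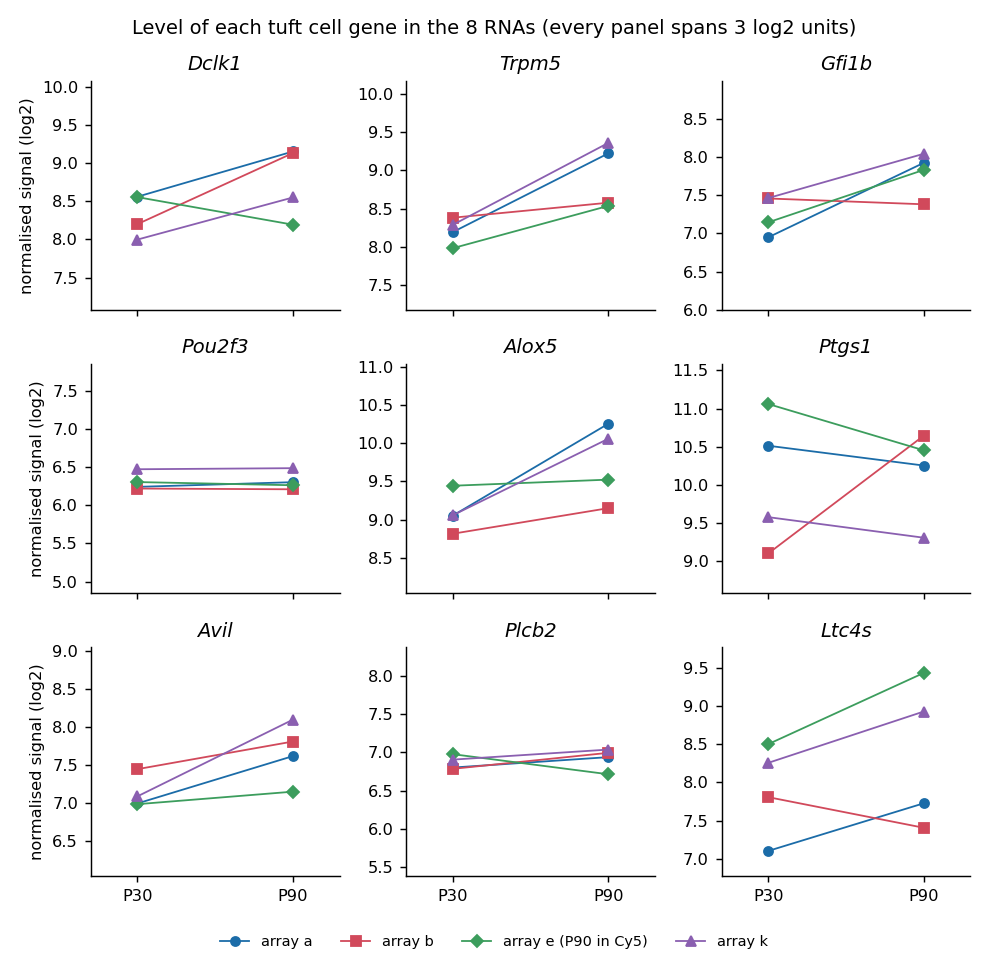
Normalised log2 signal (y axis, 3 log2 units in every panel) of the 9 tuft cell genes at P30 and P90; each line joins the 2 RNAs of 1 array. All 4 lines slope upward for Trpm5, Alox5 and Avil, array b runs against the other 3 for Gfi1b, Ltc4s and Ptgs1, and Pou2f3 and Plcb2 are nearly flat.

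The 3 genes of lipid mediator synthesis read differently from array to array. Alox5 encodes 5-lipoxygenase, the first enzyme of the leukotriene route. Its brightest probe, A_51_P247249, gave a background-subtracted signal at P90 of 586, 770, 633 and 603, and at P30 of 778, 503.5, 701 and 529.5. The normalised log2 P90/P30 was 1.20, 0.33, 0.080 and 1.002, so arrays a and k carried most of the difference and the dye swap e the least. The mean was 0.66 ± 0.53 (SD, n = 4; limma adjusted p = 0.621). It was 0.76 without array b and 0.27 with median centring. The probe A_52_P214126 gave nearly the same values, 1.23, 0.38, 0.030 and 1.05 with a mean of 0.67, and the dimmer probe A_52_P214134 gave a mean of 0.31 ± 0.38 with array e at -0.051.

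Ltc4s encodes leukotriene C4 synthase, which acts after Alox5. Its signal above background at P90 was 87, 183, 588 and 251, and at P30 it was 150.5, 196, 344 and 268, so the pairs differed in level more than the ages did. Its log2 P90/P30 was 0.62, -0.40, 0.93 and 0.67. The mean was 0.46 ± 0.59 (SD, n = 4; limma adjusted p = 0.654). Without array b it was 0.74. Gfi1b and Ltc4s had the most similar ratios among the members well above background in both channels, with log2 P90/P30 values that differed by at most 0.35 on any array.

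Ptgs1 encodes cyclooxygenase 1, the constitutive enzyme of prostaglandin synthesis, and is made by many cell types besides tuft cells. Its signal above background was 585 at P90 against 2215 at P30 on array a, 2225 against 652 on b, 1307.5 against 2246.5 on e and 341 against 783 on k. Its log2 P90/P30 was 1.54 on b and -0.26, -0.61 and -0.27 on a, e and k. The mean was 0.10 ± 0.97 (SD, n = 4; limma adjusted p = 0.972), and without array b it was -0.38 (limma adjusted p = 0.211). Fibroblast and matrix genes, all 9 of which were kept and none of which passed the adjusted test, split in the same way, with a median of 1.37 on b and -3.64, -2.28 and -2.84 on a, e and k. Their summed level, as normalised signal, ranged from 2509 to 31664 at P90 and from 11975 to 98419 at P30. Their part in the values of Ptgs1 was not tested.

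Of the structural genes, Avil encodes advillin, an actin-binding protein of the villin family found in tuft cells and sensory neurons. Its log2 P90/P30 was 0.62, 0.36, 0.16 and 1.005, above 0 on every array. The mean was 0.54 ± 0.36 (SD, n = 4; limma adjusted p = 0.617), or 1.45-fold. Its normalised level was 7.15 to 8.09 at P90 and 6.99 to 7.45 at P30, so the ages overlapped.

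Dclk1, a microtubule-associated kinase in wide use as a tuft cell marker, is also made in neurons and stromal cells. It had 6 probes, whose means ran from -0.13 to 0.44, and 1 of the 6, the near-background probe A_52_P21628, was above 0 on all arrays. The brightest, A_52_P563818, gave 0.59, 0.93, -0.36 and 0.55, with a mean of 0.43 ± 0.55 (SD, n = 4; limma adjusted p = 0.658). Without array b it was 0.26, and with median centring 0.076. A_51_P270355 ran with it, at 0.64, 1.02, -0.54 and 0.65. The third in level, A_51_P193036, gave -0.91, 0.80, -0.42 and 0.21. On array a its signal above background was 99 at P90 and 734 at P30, where the brightest probe read 262 and 553. The other 3 probes were near background, with means of 0.17 for A_52_P21628, 0.16 for A_52_P217807 and -0.13 for A_52_P26991. The average of the 6 probes was 0.16. Where these probes lie in the transcript isoforms of Dclk1 was not determined here.

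**Figure D3:**
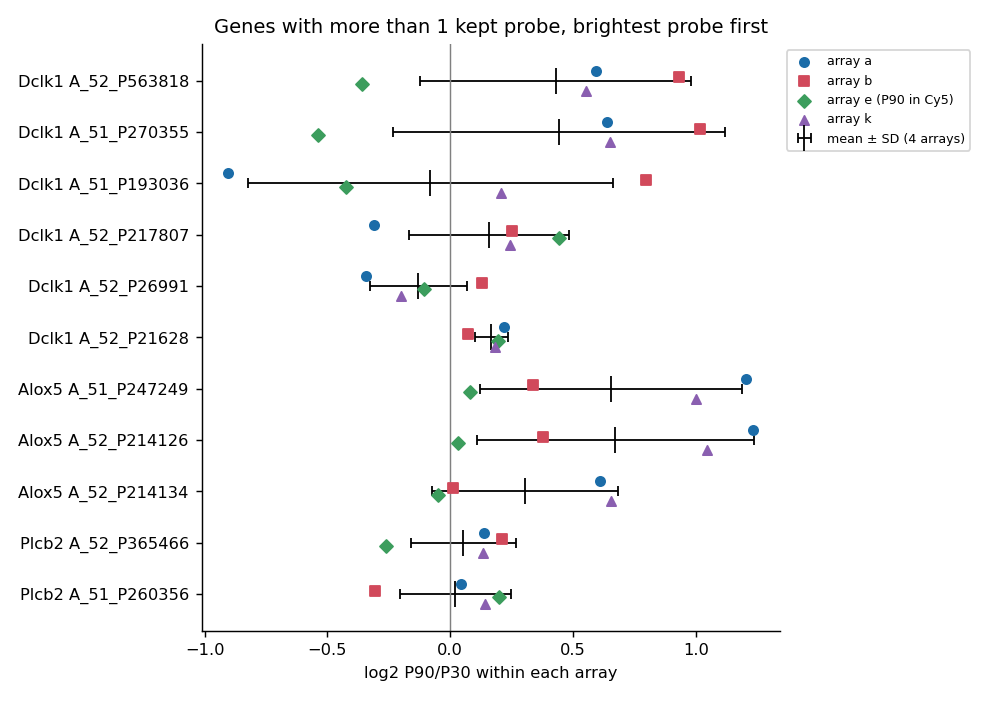
Log2 P90/P30 (x axis) on the 4 arrays for every kept probe of Dclk1, Alox5 and Plcb2, with the mean and SD over arrays in black and the brightest probe of each gene first. On all 3 Alox5 probes arrays a and k lie above b and e, and the third Dclk1 probe reads -0.91 on array a where the first 2 read 0.59 and 0.64.

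Over all kept member probes, 15 of 17 averaged above 0 and 5 exceeded 0 on each array (29.4%, against 6.57% of all probes kept). Among the 5, the Dclk1 probe A_52_P21628 was well above background at P30 on only 2 arrays, so it passed the filter through P90. The Dclk1 probe A_52_P217807, among the 15, passed in the same way. The Dclk1 probe A_52_P26991 and that of Pou2f3 passed through P30. Alox5 gave 2 of the 5, with nearly the same values. At an unadjusted limma p below 0.05 there were 5 of the 17 probes, against 8.05% of all probes in either direction. None passed the adjusted test over 27055 probes, as no other probe did (0%).

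Other genes of tuft cells were taken from 4 lists by role, written with earlier results of these data known. Of 28 genes of tuft lineage and identity, 23 were kept, 19 of them averaged above 0, 10 exceeded 0 on each array (43.5%, against the 6.15% of all genes) and none was below 0 on all 4. None of the 23 passed the limma test after adjustment over all genes (0 higher, 0 lower). At an unadjusted p below 0.05, 9 were higher and none lower, against the 2.59% and 5.31% of all genes. Krt18 and Vil1, both among the 19, were saturated in 8 and 6 of their 8 channel readings. The mean of Krt18, 0.50, was the median of the 26 genes saturated in both channels on all arrays. Its place above 0 is therefore not a measured difference. Both genes are left out of the medians by array. The median of the other 21 was 0.37, with array medians of 0.33, 0.40, 0.30 and 0.53, so this list stood above 0 on the dye swap and on array b too. Over all 23 the median was 0.21 when all probes of a gene were averaged and 0.023 with median centring, where all genes lay at -0.21.

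The 10 genes above 0 on all 4 arrays included Krt23, a keratin gene, at 1.20 ± 0.69 (SD, n = 4) with 2.09, 0.72, 0.58 and 1.39. Spib, an Ets transcription factor gene of tuft, M and B cells, was at 0.82 ± 0.54 with 0.026 on array b. The adaptor gene Sh2d7 was at 0.76 ± 0.28, with 0.69, 0.40, 0.94 and 1.01. Matk, a kinase that restrains Src family kinases, was at 0.72 ± 0.34, with 0.98, 0.23, 0.71 and 0.94, and a second Matk probe gave 0.25. Nrgn, a calmodulin-binding protein gene, was at 0.68 ± 0.45. Siglecf, a sialic acid receptor gene of eosinophils and tuft cells, was at 0.54 ± 0.18, and Cd300lf, a lipid receptor gene of myeloid and tuft cells, at 0.46 ± 0.30. Vav1, an exchange factor gene of blood cells, was at 0.40 ± 0.44, and its second probe gave 0.24 with array b at -0.18. The phosphatase gene Ptpn6 was at 0.37 ± 0.10, with -0.035 from its second probe. Each of the 10 had an adjusted p of 0.617 or above in limma. Of the list, 4 genes had all P90 levels above all P30 levels (0.888% of all genes did), among them Krt23, Spib and Sh2d7.

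**Figure D4:**
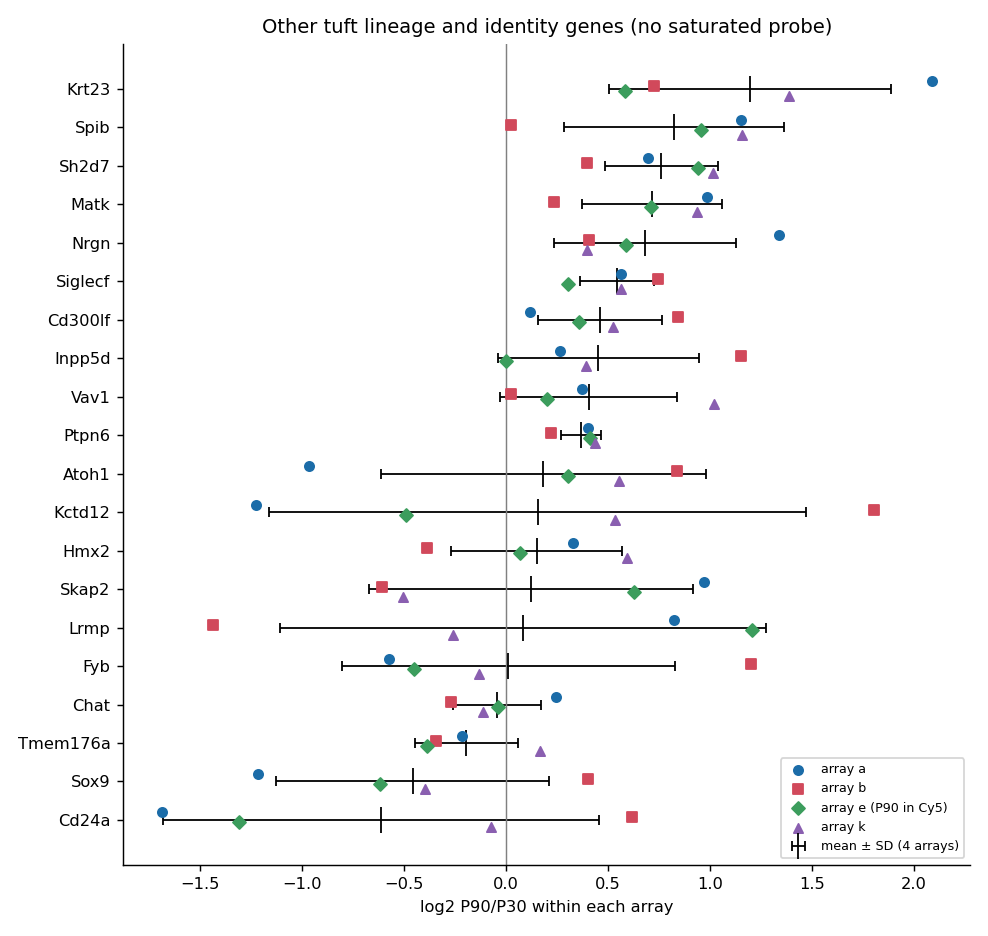
Log2 P90/P30 (x axis) on the 4 arrays for 20 kept genes of tuft lineage and identity without a saturated probe, ordered by mean, with SD in black. Of the 9 genes drawn with all marks to the right of 0, Krt23 is the highest with a mean of 1.20, and Sox9 and Cd24a at the foot are above 0 on array b alone.

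Several genes of the list did not follow. Sox9, a crypt progenitor factor, was at -0.46 ± 0.67 (SD, n = 4) and the surface protein gene Cd24a at -0.61 ± 1.07, each with array b above 0 and the remaining arrays below. Without array b these means were -0.74 and -1.02. Another Sox9 probe, A_51_P451606, did not show this order, with -0.36, -0.18, 0.40 and 0.12. The adaptor gene Skap2 was at 0.12 ± 0.80, and at 0.36 without array b. Bmx was not kept, and 4 listed genes were not matched to a probe here.

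The taste cascade genes other than Plcb2 and Trpm5 had a median of 0.020 over 8 kept genes, of which none was above 0 on all arrays and Gnb3 was below 0 on all. Itpr3, the calcium release channel that couples Plcb2 to Trpm5 in taste cells, was at 0.41 ± 0.34 (SD, n = 4) with array k at -0.053. Itpr2, a related channel, was at -0.39 ± 0.95, Gng13, a G protein subunit of taste cells, at -0.18 ± 0.41, and Gnb3 at -0.11 ± 0.077. Without array b Itpr2 was at -0.84 and Gng13 at 0.018. Gnb3 was well above background at P90 on 3 of 4 arrays and near background throughout, so its direction is not a measured difference. No taste list gene passed the adjusted limma test, or had an unadjusted p below 0.05.

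Other genes of lipid mediator synthesis had a median of 0.047 over 5 kept genes, none in 1 direction on all arrays and none past either threshold in limma. Alox5ap, which presents substrate to Alox5, was at 0.12 ± 0.71 (SD, n = 4), from 0.99 on array a to -0.72 on b. Lta4h was at 0.11 ± 0.31, and the phospholipase gene Pla2g4a at -0.86 ± 1.25, with array b at 0.64 and the remaining arrays below 0. Without array b Pla2g4a was at -1.36 and Alox5ap at 0.41.

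Genes of the type 2 circuit had a median of 0.053 over 8 kept genes, with none past either threshold in limma. Il25, the cytokine gene of tuft cells, was dim but well above background in both channels throughout, and its log2 P90/P30 was 0.29, 0.12, 0.24 and 0.52. The mean was 0.29 ± 0.17 (SD, n = 4; limma adjusted p = 0.627), and all P90 levels lay above all P30 levels. The size depended on the background treatment: it was 0.57 with a normexp offset of 10, 1.47 from the processed signals and 1.43 from the deposited log ratio. Stat6, the transcription factor gene downstream of IL-4 and IL-13, was also above 0 on all arrays, at 0.28 ± 0.059 with its P90 and P30 levels apart, and its other 2 probes gave 0.37 and 0.22. The receptor genes Il4ra and Il13ra1 were at 0.12 ± 0.26 and -0.35 ± 0.47. Il4, below 0 on all arrays with a mean of -0.043 ± 0.0098, did not stand well above background at P90 on any array, so its value is not a measured difference.

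The 3 genes whose ratios ran closest to those of Trpm5, among 11898 named genes above background throughout, were Tnfsfm13, Matk and Caly. Their log2 P90/P30 differed from that of Trpm5 by at most 0.099, 0.16 and 0.22 on any array. Matk was also a gene of the tuft lineage list. The 3 closest to Dclk1 were Irf2bpl, Atp6v1e1 and Rab37, within 0.14, 0.15 and 0.20 on every array. With 4 arrays, likeness of this kind is a description only.

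Several members and listed genes are also made by leukocytes (Alox5, Ltc4s, Spib, Vav1, Ptpn6, Siglecf, Cd300lf), by platelets (Gfi1b, Ptgs1, Plcb2) and by neurons (Dclk1, Avil). No list of lymphocyte markers was examined here. Macrophage and myeloid markers (11 kept of 12) had a median of -0.31, with -1.21, 0.86, -0.44 and -0.36, and 10 of the 11 had a mean below 0. Their summed level was 4478 to 8340 at P90 and 4792 to 10789 at P30. Mast cell markers (6 kept of 10) had a median of -0.056, with Mcpt1 and Mcpt4 below 0 on all arrays and Cpa3, Ms4a2 and Mcpt2 filtered out as dim. Their summed level was 449 to 869 at P90 and 678 to 804 at P30. The part of both lists in the values of Alox5 and Ltc4s was not tested. Neutrophil and eosinophil markers (4 kept of 10) had a median of 0.18 and a summed level of 330.3 to 874 at P90 and 288 to 389.7 at P30, with S100a8, Elane, Camp, Epx and Il5ra filtered out as dim. Their part in the value of Siglecf was not tested.

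Platelet markers (6 kept of 9) had a median of -0.12, with array medians from -0.26 on e to 0.065 on b, and a summed level of 582 to 1692 at P90 and 780.1 to 4005 at P30. Enteric neuron and glia markers (4 kept of 10) had a median of 0.11, with 0.47, -0.33, 0.45 and -0.27. Their summed level was 812 to 2048 at P90 and 718 to 1580 at P30, and Ret, Gfap and Elavl3 were among those filtered out as dim. Their part in the values of Dclk1 and Avil was not tested. Adipocyte markers (8 kept of 9) had a median of 1.99, with 0.15, 1.88, 5.45 and 0.45 over the 6 with no saturated spot, and a summed level of 6410 to 196460 at P90 and 3806 to 12763 at P30. Of the 11 colonic epithelial markers, 7 were saturated in some channel, and the other 4 had a median of 0.016, with -0.047, 0.29, 0.13 and -0.35. The 11 had a summed level, with saturated spots at their value, of 458620 to 683818 at P90 and 418211 to 486455 at P30. The 26 genes saturated in both channels on all arrays had a median log2 P90/P30 of 0.50, with 1.06, 0.33, -0.155 and 0.76. The sum over the 11 is therefore no measure of a difference between the ages. The 10 enteroendocrine markers, of another rare epithelial lineage, had a median of 0.020 over the 7 with no saturated spot, with -0.19, 0.066, 0.045 and 0.43, and a summed level over all 10 of 134698 to 216949 at P90 and 145041 to 164838 at P30. The means of those 7 were split, from -0.61 for Gcg to 0.71 for Chga. The middle gene, Neurod1, was well above background at P90 on only 1 array. None of the listed genes of other cell types passed the adjusted limma test, and at an unadjusted p below 0.05 there were 2 epithelial, 1 enteroendocrine and 3 adipocyte genes higher and 2 mast cell and 2 matrix genes lower, against the 2.59% and 5.31% of all genes. The part of the epithelial and adipocyte lists in the tuft values was not tested.

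**Figure D5:**
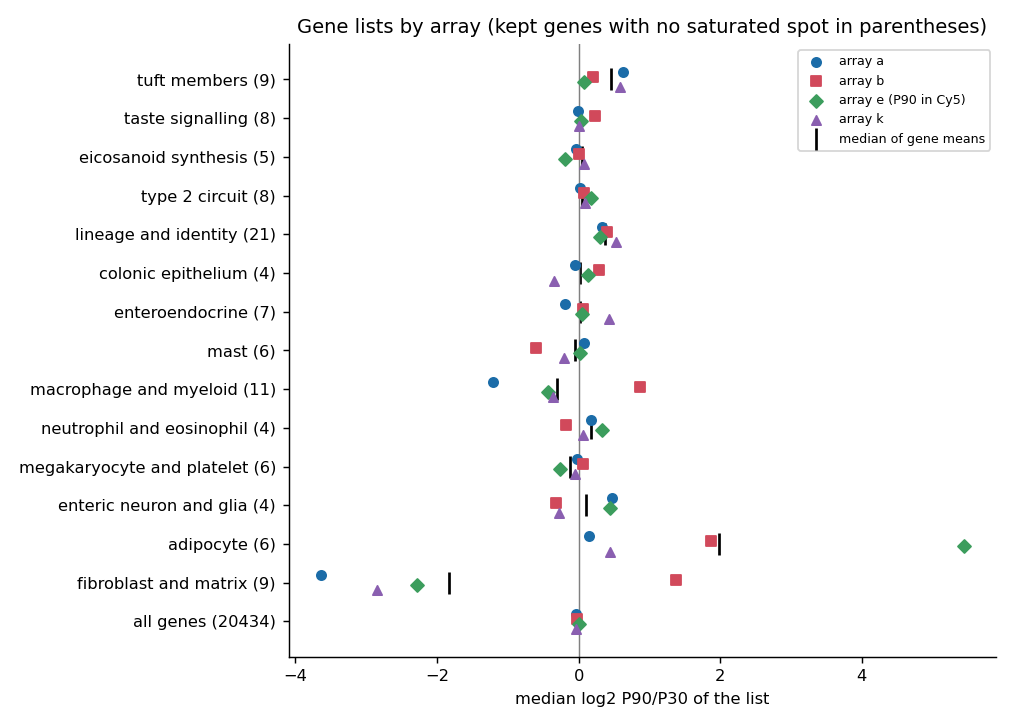
Median log2 P90/P30 (x axis) on each array for the 9 tuft members, the 4 other tuft lists, the lists of other cell types and all genes, with the median of the gene means as a black bar and the number of kept genes with no saturated spot in parentheses. The 4 marks of the tuft members and of the lineage list lie between 0.080 and 0.62, those of the adipocyte list spread from 0.15 to 5.45 and those of the matrix list from -3.64 to 1.37.

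Among all genes within the intensity range of the members (12637 genes), the median log2 P90/P30 was -0.018, with -0.046, -0.0093, -0.0031 and -0.027, and 5.98% were above 0 on all 4 arrays.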

How the data were processed

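The authors deposited 1 scanner file per array with spot intensity (median brightness of spot and local background in 2 dyes), processed signals, and a log10 ratio of Cy5 over Cy3, per the file headers. On the brighter spots, Cy3 processed signals were background-subtracted signals scaled by 1 factor per array, and Cy5 was not checked. The software was Agilent Feature Extraction 10.5.1.1 per the file headers and 8.5.1.1 per the submitters' processing notes. The series' deposited value table matched those ratios, turned to log2 P90/P30, within 0.01 for 80.0% to 87.0% of probes; its column medians were 0.21, -0.17, 0.049 and 0.17 for a, b, e and k, and any centring is not stated. Marks of outlier, background and saturation (other) were used as deposited. All 4 arrays were on 1 slide.

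Median signals were corrected with normexp (offset 50), loess (span 0.3, control spots at weight 0) was applied within arrays in limma 3.58.1 (R 4.3.3), outlier spots were left out and ratios were turned to P90 over P30. Levels come after Aquantile scaling between arrays. Of 41174 probes, 25097 were named through RefSeq accessions (GRCm38.p6). A probe was kept if well above background on at least 3 arrays in either age, and the brightest probe stood for its gene. lmFit and eBayes tested each mean against 0, with adjustment over all genes or probes at a threshold of 0.05; the fit was tested on simulated data. Members and lists were chosen with earlier results of these data known. All members are named; in the other tuft lists the 3 brightest unsaturated genes and those in 1 direction on all arrays are named, and any other gene was named after its values were seen.
Alternatives were other background, normalisation, filter, probe, ratio source, dye, weight and array settings. The number of arrays limits the precision. Some listed genes entered the counts but are not reported here by name.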

Additional observations from a re-analysis of the deposited data

Results flagged for a closer look

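In 4 of 47 groups of 4 arrays tested for a single outlying array, counting members, their kept probes, the other tuft genes named and the list medians, 1 array stood further from the rest than Dixon's 95% critical value allows. Chance gives about 1 in 20. Ptgs1 had a log2 P90/P30 of 1.54 on array b against -0.26, -0.61 and -0.27 on a, e and k. Plcb2, by its brightest probe, was at -0.26 on the dye swap e against 0.14, 0.21 and 0.13. Its other kept probe, A_51_P260356, which was near background, read 0.20 on array e and -0.31 on array b. Ptpn6 was at 0.22 on array b against 0.40 on a, 0.41 on e and 0.44 on k. The median of the taste cascade list was 0.23 on array b against -0.0088 on a, 0.031 on e and 0.0034 on k.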

How the results depend on the processing

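No member passed the adjusted limma test under any of the 17 alternatives; the smallest adjusted p was 0.0770, for Ltc4s with the sign of array b turned. The median of the 9 members was 0.18 with median centring (all genes -0.21) and 0.39 to 0.60 when 1 array was left out. The number of members above 0 on every array was 3 to 5 when 1 array was left out. It was 5 without array b, where 20.5% of all genes were, and 5 without array e, where 10.3% were; it was 2 with array b turned, where 14.3% were and the median was 0.36. Median centring turned Ptgs1 to -0.28, Plcb2 to -0.045, Alox5ap to -0.25, Lta4h to -0.28, Il4ra to -0.28, Stat6 to -0.11, Ptpn6 to -0.026, Skap2 to -0.25 and Il4 to 0.11. A dye term turned Pou2f3 to -0.0099, Plcb2 to -0.052, Ptgs1 to -0.13 and Lta4h to -0.0084. With it the remaining members stayed above 0, Dclk1 at 0.17, Alox5 at 0.46, Avil at 0.41, Trpm5 at 0.66, Gfi1b at 0.59 and Ltc4s at 0.62. Turning array b gave -0.037 for Dclk1, -0.051 for Plcb2, -0.67 for Ptgs1 and 0.21 for Gng13. Array weights gave -0.22 for Ptgs1. Pou2f3 was -0.023 without background correction, -0.29 from processed signals and -0.34 from both the deposited log ratio and the value table. Leaving out 1 array gave -0.012 to 0.022 for Pou2f3, -0.38 to 0.34 for Ptgs1, -0.29 to 0.018 for Gng13, -0.17 to 0.41 for Alox5ap and -0.16 to 0.36 for Skap2 (-0.049 without array e). The cause of these turns was not tested. The stricter filter gave no value for Pou2f3, Gnb3 and Il4. The test of the 4 within-array ratios against 0 is itself the paired analysis, so no other pairing was fitted. Signal over background limits Pou2f3, Gnb3, Il4, Il25 and the dim probes of Plcb2 and Dclk1.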
